A study of Mus musculus with 8 samples.

Results

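Liver endothelial genes were described here as a set of 37 genes, chosen by name: every non-control probe on the arrays that carried 1 of the 37 gene names was taken, and the probe with the highest mean signal stood for its gene. All 37 genes had a probe, 48 probes in all, on an array whose probes named 34700 genes. Of those genes, 23526 passed the filter on dim probes (4 or more arrays well above background) and were tested, and 36 of the 37 endothelial genes were among them. The gene that did not pass was Wnt2, which was well above background on 1 array. By role, 7 were scavenger receptors and surface proteins of the sinusoidal endothelium, 5 were angiocrine signals (secreted factors by which endothelium acts on hepatocytes), and 25 were genes of endothelium in general.

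The livers came from newborn C57BL/6J mice delivered by caesarean at E19.5, the end of gestation, and killed 4 h afterwards. One group of 4 was wild-type, and the other group of 4, littermates called knockout here, lacked the miR-379/miR-410 microRNAs on the chromosome inherited from the mother. Total RNA from pieces of the large lobe was labelled with Cy3 and put on 1 single-colour Agilent array per sample. A level is the log2 of the processed signal, set to 0 at the 75th percentile of the spots on its array, so a level can be compared between arrays for 1 probe but not between probes. A difference is knockout minus wild-type in log2 units, with 4 arrays a group. Its standard error (SE) is the moderated one of the limma fit, which draws each variance towards those of all genes or probes fitted.

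The liver sinusoid is a capillary whose endothelial cells are fenestrated, lack a continuous basement membrane and clear waste from the blood through scavenger receptors such as Stab1 and Stab2. The same cells, with those of the central vein, release Wnt ligands, Rspo3 and BMPs that set the zonation of hepatocytes and their hepcidin output. Other genes, such as Pecam1 and Cdh5, mark endothelium of every kind of vessel, and Dll4 is a Notch ligand of arterial and sprouting endothelium. In pieces of whole liver, fewer endothelial cells and less RNA per endothelial cell cannot be told apart.

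Mirg, a noncoding transcript of the deleted cluster's locus, checked the genotype. Its level was 2.16 ± 0.06 (SD, n = 4) in wild-type and -0.54 ± 0.33 (n = 4) in knockout, a difference of -2.70 (SE 0.15, limma adjusted p = 0.000326). Between 58.6% and 66.2% of spots were well above background on an array, and no spot was saturated. All arrays were on 1 slide and in 1 scan, and neither of the 2 slide columns held both genotypes, so column and genotype cannot be told apart. Both sexes were sampled, but not evenly. Xist was well above background in knockout 1, 2 and 4 and on no wild-type array. The Y-linked Ddx3y was so in wild-type 1, 2 and 4 and knockout 3 and 4. Knockout 4 therefore held both, with Xist at -0.14 and Ddx3y at 1.81, while wild-type 3 held neither. Sex was thus not balanced between the genotypes, and the 2 cannot be fully told apart. Wild-type 4 lay between wild-type 2 and 3 in 19 of the 36 endothelial genes (48.1% of all genes tested). Knockout 4 lay between knockout 2 and 3 in 21 of 36 (52.3%). For comparison, wild-type 1 lay between wild-type 2 and 3 in 6 of 36 (23.6%). Knockout 1 lay between knockout 2 and 3 in 15 of 36 (39.7%). Whether the arrays numbered 4 are independent of the others could not be shown. Values from the 6 other arrays are therefore given beside some of the counts, medians and gene differences. On those 6 arrays the Mirg difference was -2.64 (limma adjusted p = 0.0230). The p-values measure only the spread between these samples.

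Promoter sequence was available for 20 of the 37 genes and is shown for 4 of them. Clec4g, Bmp6 and Robo4 had the highest departures of wild-type 1 in their lists, and Emcn had the smallest p between genotypes. The bases are those immediately upstream of the annotated gene, 5′ to 3′ on the gene's own strand, from RefSeq on GRCm38.p6, with bases inside the gene left out. Capitals mark the letters GGAAG (a core of ETS factor sites), GATAA (GATA factors) and ACAAT (SOX factors), each searched on both strands.
Clec4g (chr8:3720696-3720901, minus strand): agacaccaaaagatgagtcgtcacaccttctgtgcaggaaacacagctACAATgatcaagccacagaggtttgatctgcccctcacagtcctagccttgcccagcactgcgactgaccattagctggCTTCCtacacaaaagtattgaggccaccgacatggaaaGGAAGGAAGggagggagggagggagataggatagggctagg
Bmp6 (chr13:38345466-38345715, plus strand): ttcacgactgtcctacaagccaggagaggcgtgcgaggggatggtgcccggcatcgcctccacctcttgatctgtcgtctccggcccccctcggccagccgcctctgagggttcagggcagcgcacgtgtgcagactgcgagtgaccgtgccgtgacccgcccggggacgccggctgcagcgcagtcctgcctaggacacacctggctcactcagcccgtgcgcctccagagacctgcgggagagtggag
Robo4 (chr9:37401722-37401901, plus strand): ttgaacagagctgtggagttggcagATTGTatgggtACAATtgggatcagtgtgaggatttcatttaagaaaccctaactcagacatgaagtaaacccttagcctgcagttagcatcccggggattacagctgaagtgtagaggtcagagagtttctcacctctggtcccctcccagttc
Emcn (chr3:137340828-137341061, plus strand): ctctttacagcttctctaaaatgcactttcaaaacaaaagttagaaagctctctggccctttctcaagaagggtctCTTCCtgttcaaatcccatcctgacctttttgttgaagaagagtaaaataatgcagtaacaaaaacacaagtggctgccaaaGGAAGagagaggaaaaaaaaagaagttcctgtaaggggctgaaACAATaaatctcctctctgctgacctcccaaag

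The Clec4g stretch held 3 matches to GGAAG, of which a pair overlaps by 1 base, and 1 to ACAAT. Robo4 held 2 matches to ACAAT and Emcn held 2 to GGAAG and 1 to ACAAT, while the 250 bases of Bmp6 held none of the 3. The next counts use whole windows of 250 bases before the start site, including bases inside the annotated gene, which the stretches above leave out. In these windows GGAAG was found in 15 of the 20 endothelial genes and in 63.6% of 27025 promoters. ACAAT was found in 6 of 20 and in 28.3% of promoters, and GATAA in 1 of 20 and in 23.0% of promoters. These matches describe letters only, and no binding was measured. The probes behind these genes lay, in the mm9 coordinates of the array files, at chr8:3716182-3716241 for Clec4g, chr13:38591479-38591538 for Bmp6, chr9:37221547-37221606 for Robo4 and chr3:137086389-137086448 for Emcn, and their place in exon or UTR was not annotated here.

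The first comparison asked whether liver endothelial genes differed between knockout and wild-type. None of the 36 was called, with a smallest limma adjusted p of 0.222 (Dll4 and Emcn), where 0.179% of all genes tested were called lower and 0.0383% higher. The means nevertheless lay lower in knockout for 31 of 36 genes, against 43.5% of all genes. The median difference was -0.16, against 0.03 over all genes tested. At an unadjusted p under 0.05, 9 of 36 lay lower (6.48% of all genes did) and 0 of 36 lay higher (6.84%). In 7 genes every wild-type array was above every knockout array (4.33% of all genes), and in 0 every wild-type array was below (4.72%). All 7 were general endothelial genes: Dll4, Pecam1, Esam, Emcn, Mmrn2, Sox18 and Nos3. The median half-width of the 95% interval of a difference was 0.254 for these genes and 0.258 over all genes tested, larger than the median difference. On 6 arrays the median was -0.18 and 2 genes, Emcn and Dll4, lay lower at an unadjusted p under 0.05 (3.88% of all genes), with 0 called (0.0255%). The other 7 of the 9 genes had differences from -0.35 (Sox18) to -0.19 (Eng) on 6 arrays, and none kept an unadjusted p under 0.05. Their limma unadjusted p-values ran from 0.0534 (Egfl7) to 0.168 (Eng). The median on 6 arrays was -0.16 for the sinusoidal, -0.24 for the angiocrine and -0.18 for the general genes.

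**Figure D1:**
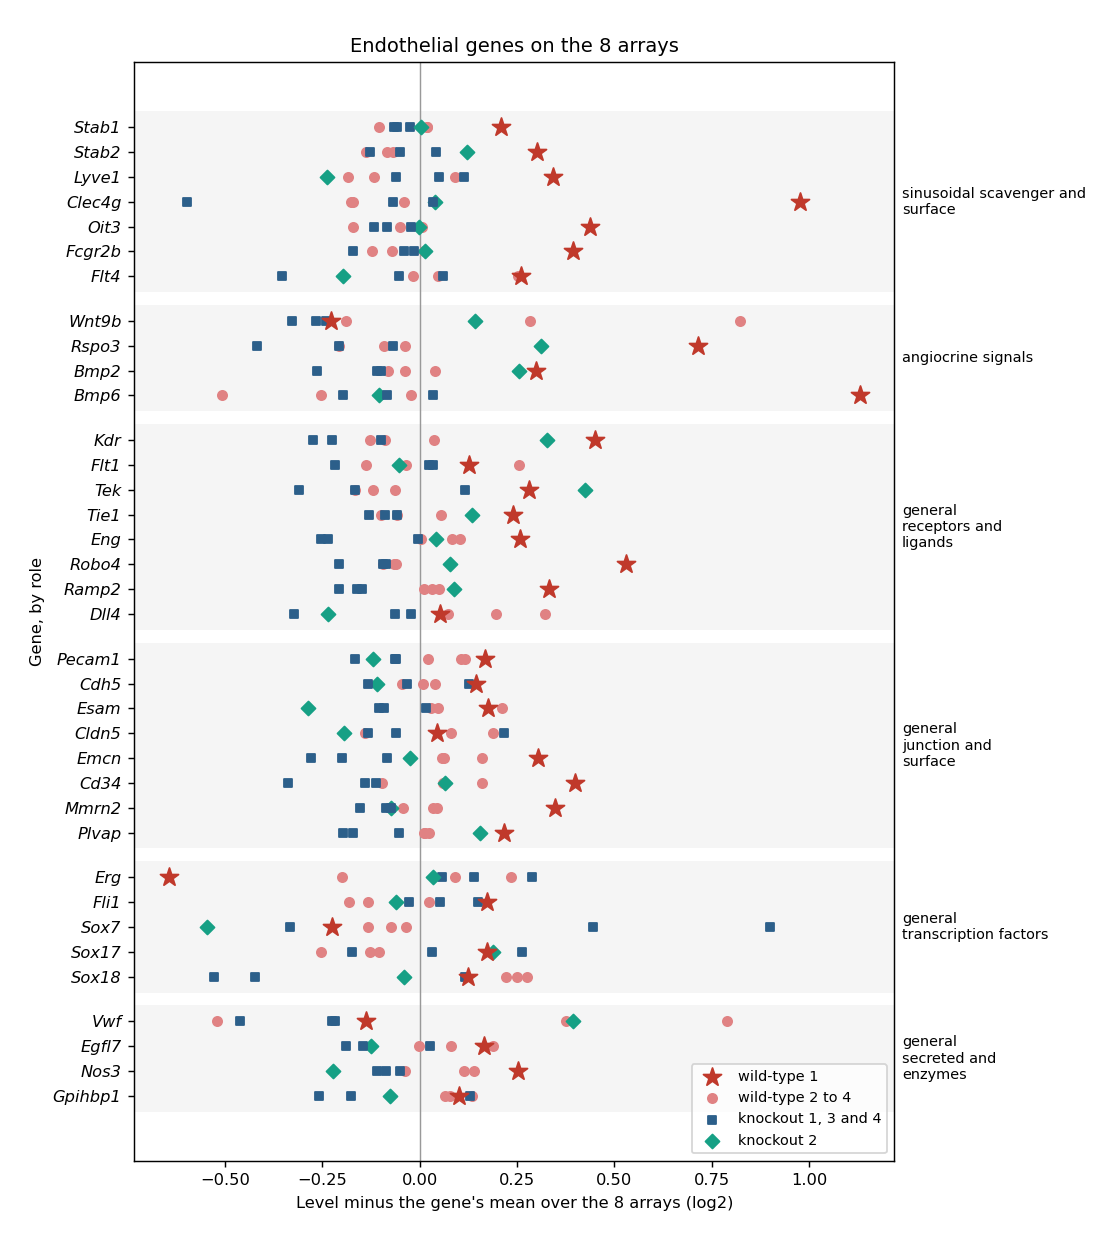
Level of each of the 36 measured endothelial genes on each array minus that gene's mean over the 8 arrays (log2, x axis), with genes grouped by role on the y axis and each symbol 1 array. The star of wild-type 1 is the rightmost symbol in 23 of the 36 genes, including all 7 sinusoidal ones, and the leftmost in 1, Erg.

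The sinusoidal scavenger and surface genes lay closest together in the 2 genotypes, with a median difference of -0.11 and a range from -0.29 to -0.01. All 7 means were lower in knockout. Stab2, a hyaluronan scavenger receptor, stood at 4.90, 4.51, 4.46 and 4.53 in wild-type 1 to 4 and at 4.47, 4.72, 4.55 and 4.64 in knockout 1 to 4. The groups overlapped, and the highest value was that of wild-type 1. The difference was -0.01 (SE 0.11, limma adjusted p = 0.981), and 2 dimmer Stab2 probes gave -0.03 and 0.05.

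Lyve1, a hyaluronan receptor of sinusoidal and lymphatic endothelium, had levels of 2.98, 2.73, 2.46 and 2.52 in wild-type and 2.76, 2.40, 2.69 and 2.58 in knockout. Wild-type 1 was highest and knockout 2 lowest, with the rest intermixed. The difference was -0.07 (SE 0.13, limma adjusted p = 0.847).

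Clec4g, a C-type lectin of the sinusoid, had the widest interval of the list. Its levels were 4.22, 3.07, 3.21 and 3.07 in wild-type 1 to 4 and 2.65, 3.29, 3.28 and 3.18 in knockout 1 to 4. Wild-type 1 was far above and knockout 1 far below the other 6 arrays, which ran from 3.07 to 3.29. The difference was -0.29 (SE 0.27, limma adjusted p = 0.649), with -0.43 on 6 arrays and -0.02 without wild-type 1.

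Stab1, the other stabilin scavenger receptor, differed by -0.07 (SE 0.08). Oit3, a secreted protein used as a sinusoidal marker, differed by -0.11 (SE 0.13), and Fcgr2b, the inhibitory Fc receptor that clears immune complexes, by -0.11 (SE 0.12). Flt4, the receptor for VEGF-C, was the single sinusoidal gene at an unadjusted p under 0.05. It stood at -1.68, -1.69, -1.96 and -1.89 in wild-type and at -1.88, -2.14, -1.99 and -2.29 in knockout. Knockout 1 lay among the wild-type arrays and the other knockout arrays lay below all of them. The difference was -0.27 (SE 0.11, limma adjusted p = 0.350), with -0.23 on 6 arrays and also without wild-type 1.

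Among the angiocrine signals, 4 of 5 were measured, their median difference was -0.18 and all 4 means lay lower in knockout, none with an unadjusted p under 0.05. Wnt9b, a Wnt ligand of the central vein, had levels of -3.76, -3.73, -2.72 and -3.25 in wild-type and -3.86, -3.39, -3.80 and -3.78 in knockout. Wild-type 3 and 4 were the highest, and wild-type 1 and 2 lay among the knockout arrays. The difference was -0.35 (SE 0.23, limma adjusted p = 0.536). Wnt2, the other endothelial Wnt ligand, had no measured difference: its values of -6.63, -6.21, -5.18 and -5.87 in wild-type and -6.08, -6.72, -6.63 and -5.63 in knockout were at background on 7 of the 8 arrays.

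Bmp2, which with Bmp6 drives hepcidin in hepatocytes, stood at 2.13, 1.80, 1.87 and 1.75 in wild-type and at 1.74, 2.09, 1.57 and 1.73 in knockout. Wild-type 1 and knockout 2 were the 2 highest arrays. The difference was -0.11 (SE 0.13, limma adjusted p = 0.724).

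For Bmp6 the levels were -1.34, -2.73, -2.98 and -2.49 in wild-type and -2.67, -2.58, -2.44 and -2.55 in knockout. Wild-type 1 stood apart from the 7 others, which ran from -2.98 to -2.44. The difference was -0.17 (SE 0.31, limma adjusted p = 0.828) with all 8 arrays and 0.17 without wild-type 1. Rspo3, which amplifies Wnt signalling, differed by -0.19 (SE 0.23) and by 0.02 without wild-type 1.

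The general endothelial genes had a median difference of -0.19, and 20 of 25 means lay lower in knockout. Their mean level was 1.41, 1.32, 1.26 and 1.28 in wild-type 1 to 4 and 1.17, 1.24, 1.15 and 1.18 in knockout 1 to 4. Every wild-type array was therefore above every knockout array in this mean, with wild-type 3 and knockout 2 the closest pair.

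**Figure D2:**
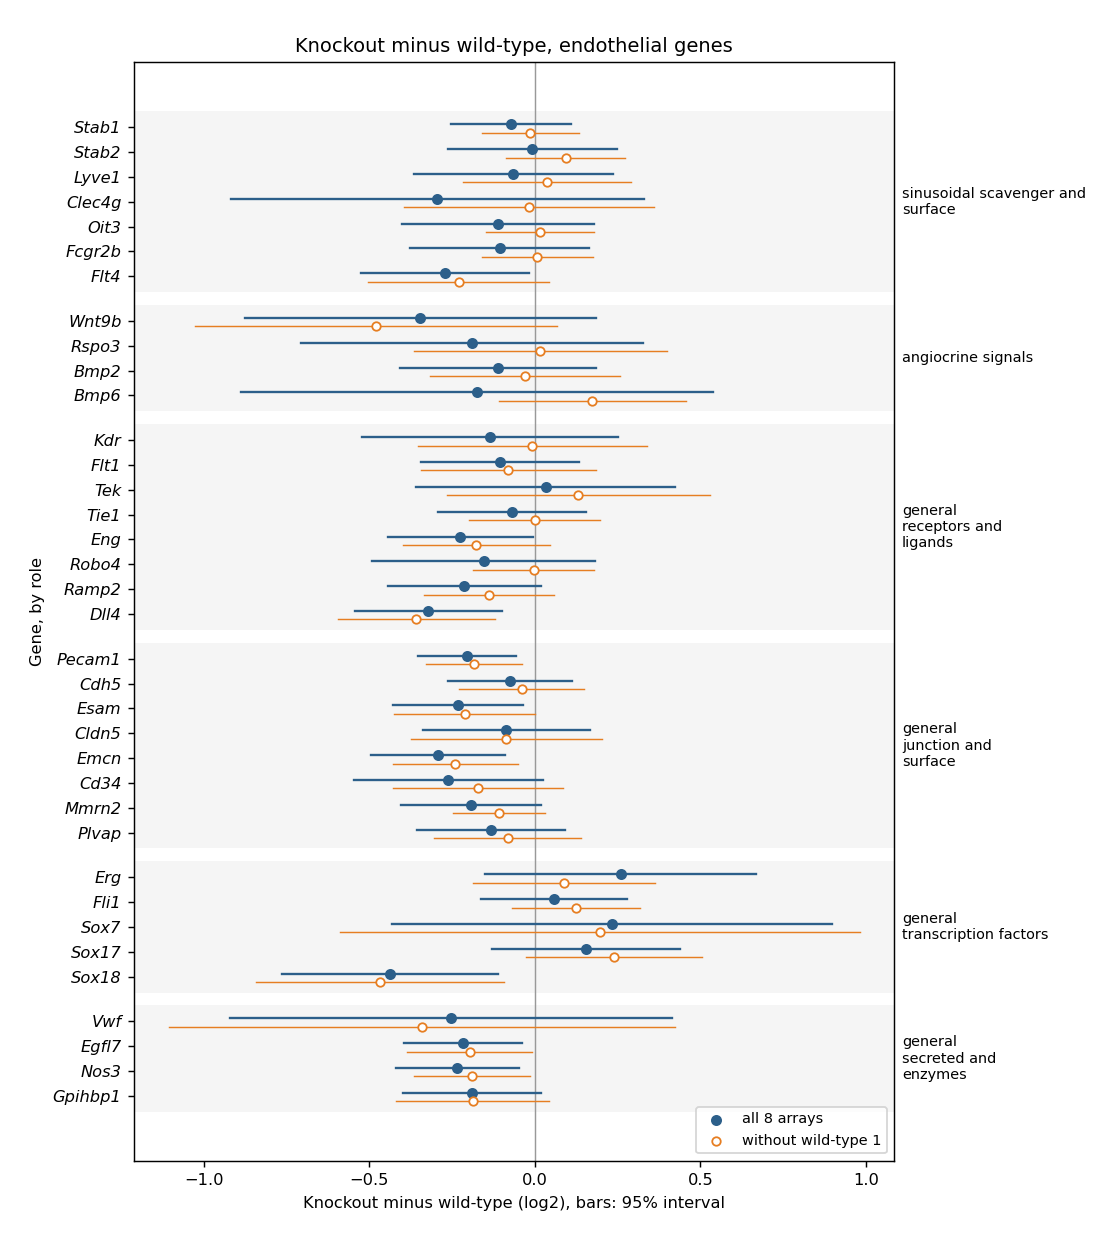
Knockout minus wild-type difference (log2, x axis) of the 36 measured genes, grouped by role on the y axis, from all 8 arrays (filled points) and without wild-type 1 (open points), with 95% intervals as bars. The intervals of 9 genes lie below 0 with all arrays, and without wild-type 1 the median of the 7 sinusoidal points is 0.01, with Flt4 at -0.23.

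Of the receptors and ligands, Dll4 had the smallest p. Its levels were -2.47, -2.20, -2.45 and -2.32 in wild-type and -2.54, -2.75, -2.84 and -2.58 in knockout, without overlap. The difference was -0.32 (SE 0.10, limma adjusted p = 0.222), with -0.34 on 6 arrays and -0.36 without wild-type 1.

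Kdr, the main VEGF receptor, had levels of 2.59, 2.18, 2.02 and 2.06 in wild-type and 1.92, 2.47, 1.87 and 2.05 in knockout. Wild-type 1 and knockout 2 were high and the other arrays overlapped. The difference was -0.13 (SE 0.17, limma adjusted p = 0.743). Its 10 spots varied with an SD of 0.03 to 0.06 within an array. A second Kdr probe with 1 spot gave the opposite sign, 0.10 (SE 0.08), and put wild-type 1 lowest, at 1.87 against 2.10 to 2.23 elsewhere.

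Eng, a TGF-beta and BMP9 co-receptor, differed by -0.22 (SE 0.10, limma adjusted p = 0.367, unadjusted p = 0.0462). Ramp2, the partner of the adrenomedullin receptor, differed by -0.21 (SE 0.10). Flt1, a decoy VEGF receptor, differed by -0.11 (SE 0.10) and Tie1, the orphan partner of Tek, by -0.07 (SE 0.10). Dimmer Flt1 probes gave 0.14 (SE 0.19) and -0.10 (SE 0.19). Tek, the angiopoietin receptor, was the single gene of this list with a higher mean in knockout, at 0.03 (SE 0.17). It turned to -0.04 on 6 arrays, so no direction is given.

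Robo4, a guidance receptor that stabilises vessels, had levels of 3.30, 2.71, 2.71 and 2.68 in wild-type and 2.68, 2.85, 2.57 and 2.69 in knockout. Wild-type 1 was highest, knockout 2 next, and the other wild-type arrays lay among the knockout arrays. The difference was -0.15 (SE 0.15, limma adjusted p = 0.658), or -0.0036 without wild-type 1.

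All 8 junction and surface genes had lower means in knockout, with a median of -0.20. Pecam1, the adhesion molecule CD31, stood at -0.43, -0.58, -0.48 and -0.49 in wild-type and at -0.66, -0.72, -0.76 and -0.66 in knockout. The groups did not overlap. The difference was -0.20 (SE 0.07, limma adjusted p = 0.239).

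Emcn, the sialomucin of capillary and venous endothelium, had levels of -0.94, -1.18, -1.08 and -1.18 in wild-type and -1.44, -1.27, -1.52 and -1.32 in knockout. Again no knockout array reached a wild-type one. The difference was -0.29 (SE 0.09, limma adjusted p = 0.222), with -0.34 on 6 arrays and -0.24 without wild-type 1.

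Esam, a tight-junction adhesion molecule, stood at 1.37, 1.41, 1.24 and 1.23 in wild-type and at 1.22, 0.91, 1.09 and 1.11 in knockout. Knockout 1 came close to the lowest wild-type array without reaching it, and knockout 2 was lowest. The difference was -0.23 (SE 0.09, limma adjusted p = 0.303).

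Cdh5, VE-cadherin of the adherens junction, did not follow Pecam1 on every array. Its levels were 1.70, 1.51, 1.56 and 1.59 in wild-type and 1.68, 1.44, 1.52 and 1.42 in knockout. Knockout 1 was the second highest of the 8 arrays, and the groups overlapped. The difference was -0.08 (SE 0.08, limma adjusted p = 0.702).

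Cd34, a sialomucin of endothelium and blood progenitors, had levels of 2.65, 2.41, 2.31 and 2.15 in wild-type and 1.91, 2.31, 2.13 and 2.10 in knockout. Wild-type 1 was highest, knockout 1 lowest, and knockout 2 level with wild-type 3. Its difference was -0.26 (SE 0.13, limma adjusted p = 0.410). Mmrn2, an endothelial matrix protein, differed by -0.19 (SE 0.09) and Cldn5, a tight-junction claudin, by -0.09 (SE 0.11). Plvap, which forms the diaphragms of fenestrae and caveolae, differed by -0.13 (SE 0.10), with -0.08 (SE 0.08) on a dimmer probe.

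The transcription factors were the single list in which most means were higher in knockout, 4 of 5. Sox18, the exception and the member with the most negative difference, belongs with Sox7 and Sox17 to the SOXF factors of vessel and lymphatic development. It stood at 0.27, 0.40, 0.37 and 0.42 in wild-type and at 0.26, 0.10, -0.38 and -0.28 in knockout. Knockout 1 lay just below wild-type 1, and knockout 3 and 4 were far below. The difference was -0.44 (SE 0.14, limma adjusted p = 0.252).

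Sox7 had its high values on the arrays where Sox18 was low: -1.86, -1.71, -1.67 and -1.77 in wild-type and -1.97, -2.18, -0.73 and -1.19 in knockout. The first pair of knockout arrays lay below, and the other pair above, all wild-type arrays. The difference was 0.23 (SE 0.29, limma adjusted p = 0.742), or -0.03 without knockout 3. Sox17 differed by 0.16 (SE 0.12), with a second probe at 0.15 (SE 0.14).

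Erg, an ETS factor that maintains endothelial identity, had levels of -3.40, -2.95, -2.66 and -2.52 in wild-type and -2.70, -2.72, -2.61 and -2.47 in knockout. Wild-type 1 was the lowest of the 8 arrays, which with highest-mean probes was so for no other measured endothelial gene. The difference was 0.26 (SE 0.18, limma adjusted p = 0.545), and a dimmer second probe gave -0.13 (SE 0.16) with wild-type 1 level with the mean of the other wild-type arrays. Fli1, an ETS factor of endothelium and blood cells, differed by 0.06 (SE 0.10) and by -0.03 on 6 arrays.

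All 4 secreted factors and enzymes had lower means in knockout. Egfl7, a secreted factor of vascular tube formation, stood at 5.44, 5.36, 5.47 and 5.27 in wild-type and at 5.30, 5.15, 5.09 and 5.13 in knockout. Knockout 1 reached into the wild-type range and the other knockout arrays lay below it. The difference was -0.22 (SE 0.08, limma adjusted p = 0.291).

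Nos3, endothelial nitric oxide synthase, had levels of 1.95, 1.84, 1.66 and 1.81 in wild-type and 1.61, 1.48, 1.65 and 1.59 in knockout, with knockout 3 just below wild-type 3. The difference was -0.23 (SE 0.08, limma adjusted p = 0.276). A second Nos3 probe with 10 spots gave -0.27 (SE 0.07, limma unadjusted p = 0.00426). Both probes placed every wild-type array above every knockout array.

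Vwf, the clotting protein stored in endothelium and platelets, varied most among general genes within wild-type: 5.26, 6.19, 4.88 and 5.77 in wild-type and 5.18, 5.79, 4.94 and 5.17 in knockout. Wild-type 2 and 4 and knockout 2 were high, and the groups overlapped throughout. The difference was -0.25 (SE 0.29, limma adjusted p = 0.718), and a dimmer second probe gave 0.10 (SE 0.36). That probe put wild-type 1 lowest, at 1.46 against 2.20 to 3.30 elsewhere. Gpihbp1, which carries lipoprotein lipase to the vessel surface, differed by -0.19 (SE 0.09).

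The second comparison concerned wild-type 1. It was the highest of the 8 arrays in 23 of the 36 genes, where it was highest in 22.4% of all genes, and the lowest in 1 of 36, where it was lowest in 26.3% of all genes. It lay above the mean of wild-type 2 to 4 in 30 of 36 (49.0% of all genes). These counts used the highest-mean probe of each gene. Other probes of Stab2, Kdr, Cd34 and Nos3 did not put wild-type 1 highest, while a dimmer Plvap probe did. On 2 dimmer Stab2 probes it stood at 1.06 against 1.22 in knockout 2, and at 1.47 against 1.52 in knockout 1. A second Kdr probe put it lowest, at 1.87. Its level was -3.27 against -2.93 in wild-type 4 on a dimmer Cd34 probe. On the Nos3 probe with 10 spots it was -0.23 against -0.15 in wild-type 2. By role, wild-type 1 was highest in 7 of 7 sinusoidal genes, 3 of 4 angiocrine signals and 13 of 25 general genes. The median departure from the mean of wild-type 2 to 4 was 0.41, 0.58 and 0.18 in those lists, against -0.01 over all genes tested, of which 5% lay below -0.71 and 5% above 0.54.

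Bmp6 departed most, by 1.39 or 2.62-fold, and Clec4g next, by 1.11 or 2.15-fold. Rspo3 was 1.77-fold, Robo4 1.52-fold, Kdr 1.42-fold and Oit3 1.42-fold above wild-type 2 to 4. On the other side, the departure of wild-type 1 was -0.69 for Erg, -0.53 for Wnt9b and -0.35 for Vwf. These values come from the highest-mean probe of each gene, and other probes could differ. A second probe gave -0.26 for Kdr, -0.12 for Cd34, 0.0044 for Erg and -1.39 for Vwf. With highest-mean probes, the largest departures in size within the other lists were Robo4 among receptors and Cd34 at 0.36 among junction genes. Among transcription factors the largest was Erg, and among secreted proteins Vwf. This is 1 array with no replicate of its own, and no test was made.

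Wild-type 1 and knockout 2 were the 2 highest arrays in 11 of 36 genes (8.02% of all genes): Stab2, Clec4g, Fcgr2b, Rspo3, Bmp2, Kdr, Tek, Tie1, Robo4, Ramp2 and Plvap. Tek was the one among them in which knockout 2 was the higher of the pair.

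Without wild-type 1 the median difference between genotypes was -0.06 rather than -0.16, and 25 of 36 means were lower in knockout (44.4% of all genes). At an unadjusted p under 0.05, 6 of 36 then lay lower (7.01% of all genes) and none was called (0.383% of all genes were, in either direction). Those 6 were general genes, and all were also among the 9 with all arrays. The median of the 7 sinusoidal genes became 0.01, with 3 of 7 lower in knockout, and that of the 25 general genes -0.11, with 20 of 25 lower. The junction and surface genes kept 8 of 8 lower means.

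The third comparison set sinusoidal against general genes within each array. The mean level of the 7 sinusoidal genes minus that of the 25 general genes was 1.28 in wild-type 1 and 0.95, 0.95 and 0.93 in wild-type 2 to 4. In knockout 1 to 4 it was 0.98, 1.00, 1.10 and 1.02. Wild-type 1 was above all others, wild-type 2 to 4 were the 3 lowest, and the knockout arrays lay between. Since probes differ in brightness, only the change of this value from array to array can be read.

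The genotype means of this contrast were 1.03 ± 0.17 (SD, n = 4) in wild-type and 1.03 ± 0.05 (n = 4) in knockout, a difference of -0.0010, or -0.03 on 6 arrays. Wild-type 2 to 4 alone averaged 0.94 ± 0.01 (n = 3), which puts knockout 0.08 higher. Wild-type 1 was 0.34 above the mean of wild-type 2 to 4. With 6 general genes that blood cells also make left out (Vwf, Cd34, Fli1, Pecam1, Esam and Eng), wild-type 1 was 0.33 above the other wild-type arrays. Knockout 1, at 1.17, then lay below wild-type 2, at 1.18. The sinusoidal genes were all kept in this version, whether or not blood cells make them. With the angiocrine signals counted as sinusoidal, knockout 1, at -0.233, lay below wild-type 3 and 4, at -0.201 and -0.226. Knockout arrays thus did not lie above wild-type 2 to 4 in every version of the contrast.

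**Figure D3:**
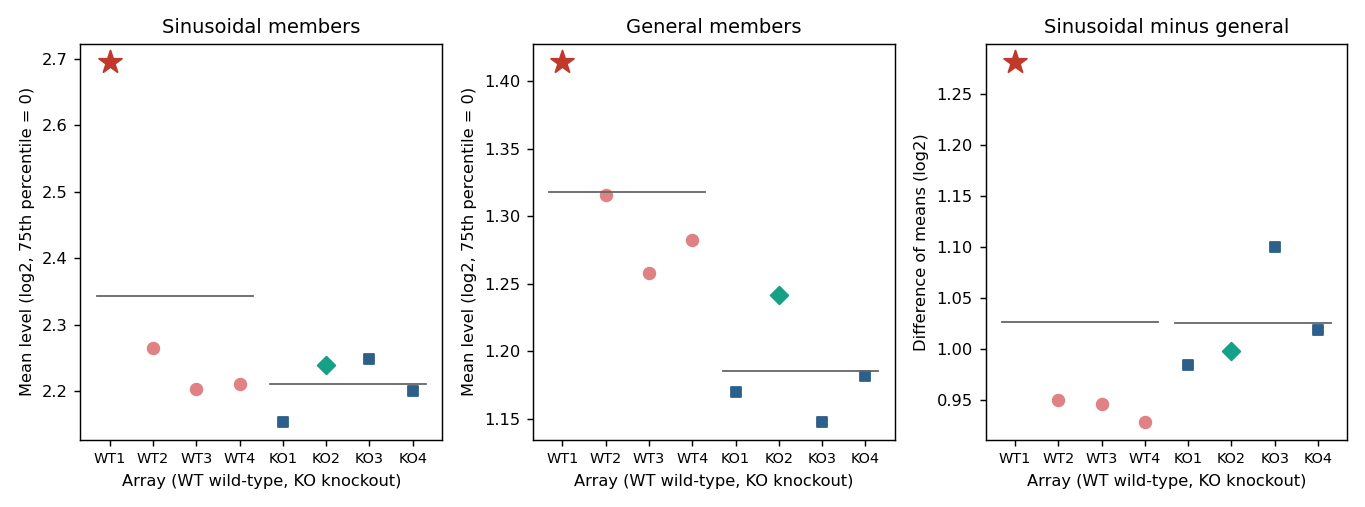
Mean level of the 7 sinusoidal genes, mean level of the 25 general genes and the difference of these means (log2, y axes, not starting at 0) on each of the 8 arrays, with horizontal lines at the means of 4 wild-type (WT) and 4 knockout (KO) arrays. Wild-type 1 is at 1.28 in the right panel, above the 0.93 to 1.10 of the other arrays.

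Markers of other liver cells were read from the same fit, and none was called (0.179% of all genes lower and 0.0383% higher). Their part in these results was not tested. The 10 stellate and fibroblast markers had a median difference of -0.27, and 7 of them lay lower at an unadjusted p under 0.05 (6.48% of all genes). On 6 arrays the median was -0.28 and 4 did so. Their mean ran from 1.53 to 1.70 in wild-type and from 1.22 to 1.48 in knockout, without overlap. Col1a2 differed by -0.46 (SE 0.08, limma adjusted p = 0.0841). The means of the 10 hepatocyte markers were 7.70 to 7.94 in wild-type and 7.59 to 7.69 in knockout, and their median difference was -0.04. This gap between the means came from Tdo2, a tryptophan-degrading enzyme, which differed by -1.51. With Tdo2 left out, a choice made after its values were seen, the means of the other 9 overlapped, at 8.88 to 9.07 in wild-type and 8.95 to 8.99 in knockout. Ttr, the thyroid hormone carrier, differed by 0.20. The 9 measured erythroid markers went the other way, with a median of 0.32, or 0.17 without wild-type 1, and 2 higher at an unadjusted p under 0.05 (6.84% of all genes). The 10 lymphocyte markers had a median of -0.19 with 1 lower at that p, and of -0.33 with 6 lower without wild-type 1 (7.01% of all genes). The 10 megakaryocyte markers, cells that also make Vwf, had a median difference of -0.11, with 10 of 10 lower and 0 at an unadjusted p under 0.05. The 10 macrophage markers had a median of -0.10. The 6 measured smooth muscle markers had -0.37, with means of 0.61 to 1.63 in wild-type and 0.31 to 0.78 in knockout. The 7 measured lymphatic and mesothelial markers had -0.04.

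Wild-type 1 stood apart in several of these lists. The 9 measured erythroid markers had a mean of 4.47 in wild-type 1, against 4.96 to 5.22 in wild-type 2 to 4 and 5.21 to 5.31 in knockout, and wild-type 1 was lowest in 9 of 9. Lymphocyte markers averaged 0.25 there, against 0.76 to 1.00 and 0.53 to 0.59, with 8 of 10 lowest in wild-type 1. Hepatocyte markers were lowest there in 7 of 10. Macrophage markers averaged 4.30 in wild-type 1, against 3.99 to 4.09 in the other wild-type arrays and 3.86 to 4.14 in knockout. By smaller margins, wild-type 1 was also the highest array for the means of 3 other lists. These were stellate and fibroblast (1.70, next 1.67), megakaryocyte (2.64, next 2.63) and lymphatic and mesothelial markers (0.62, next 0.55). The 6 measured pancreas markers were high in wild-type 3 and 4, at 3.08 and 2.18, and ran from -1.20 to -0.06 elsewhere.

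**Figure D4:**
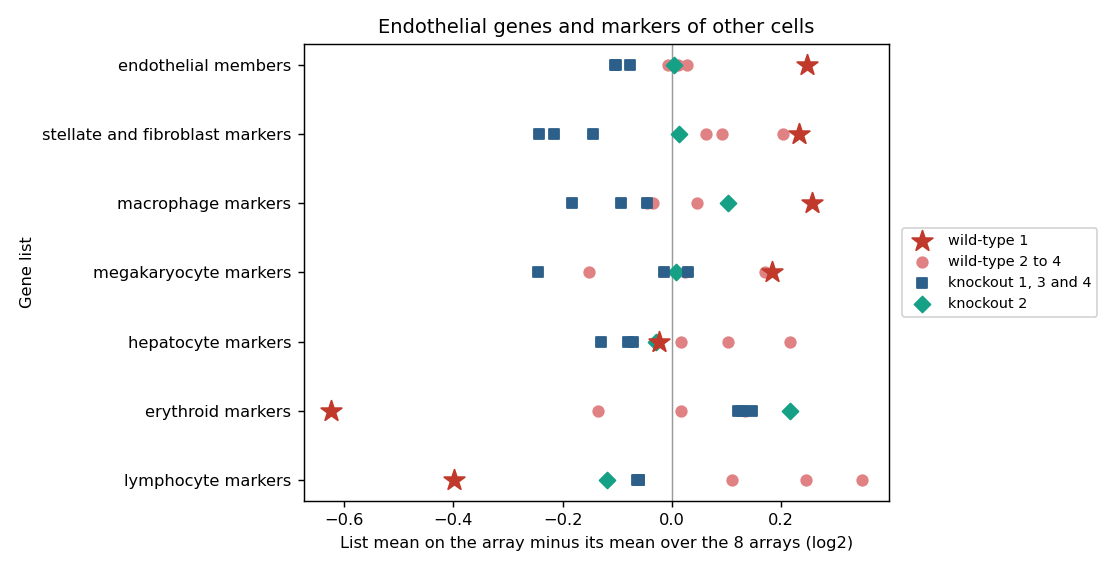
Mean level of the 36 endothelial genes and of 6 marker lists of other liver cells on each array minus that list's mean over the 8 arrays (log2, x axis), with each symbol 1 array. Wild-type 1 is the highest array for endothelial genes and macrophage markers and the lowest for erythroid and lymphocyte markers. It is also the highest, by a small margin, for megakaryocyte and for stellate and fibroblast markers. In the stellate and fibroblast list, knockout arrays fill the low side.

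Genes of the pathways around these members were read from the same fit, and none of the measured genes in 6 lists was called. Of the 22 other general endothelial genes, 5 lay lower and 0 higher at an unadjusted p under 0.05 (6.48% and 6.84% of all genes), with a median of -0.09. Gja5, connexin 40 of arterial gap junctions, stood at -1.20, -1.40, -1.28 and -1.48 in wild-type and at -1.89, -1.61, -2.04 and -1.84 in knockout. No knockout array reached the lowest wild-type one. The difference was -0.50 (SE 0.11, limma adjusted p = 0.114), with -0.55 on 6 arrays. It was -0.23 over the mean of its kept probes and -0.01 in the deposited value table, where the highest-mean probe was chosen anew.

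Gja4, connexin 37 of arterial endothelium, had levels of -0.49, -0.83, -0.51 and -0.75 in wild-type and -0.99, -0.98, -1.16 and -1.09 in knockout, also without overlap. The difference was -0.41 (SE 0.10, limma adjusted p = 0.142), and -0.43 on 6 arrays. With the highest-mean probe of each gene, both connexin genes had a difference larger in size than that of Dll4.

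Among the 11 Notch partners 1 lay lower at an unadjusted p under 0.05, near the 6.48% of all genes, with a median of -0.22. Heyl, a target of Notch, differed by -0.36 (SE 0.15, limma adjusted p = 0.359) and Notch4, the endothelial Notch receptor, by -0.27 (SE 0.13, limma adjusted p = 0.421). Of the 11 VEGF and angiopoietin partners 1 lay lower, again near the 6.48% of all genes, with a median of -0.08. Nrp2, a co-receptor of Flt4, differed by -0.22 (SE 0.08, limma adjusted p = 0.316) and Ptprb, the phosphatase VE-PTP, by -0.20 (SE 0.14, limma adjusted p = 0.565). The sign of Nrp2 turned in the deposited value table, where the difference was 0.19. The highest-mean probe was chosen anew in that table, so the probe may not be the same.

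Of the 12 other sinusoidal genes 1 lay lower at that p, near the 6.48% of all genes, with a median of -0.13. In 9 of 12 wild-type 1 was the highest array, against 22.4% of all genes. Gpr182, a receptor of sinusoidal endothelium, stood at 4.81, 4.60, 4.23 and 4.33 in wild-type and at 4.07, 4.04, 4.03 and 4.12 in knockout. The groups did not overlap. The difference was -0.43 (SE 0.13, limma adjusted p = 0.212), with -0.32 without wild-type 1. Adam23 differed by -0.27 (SE 0.18), and by -0.09 without wild-type 1.

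The 13 BMP and ALK1 partners held 1 gene lower and 1 higher at an unadjusted p under 0.05 (6.48% and 6.84% of all genes). Hamp, the hepcidin gene that endothelial Bmp2 and Bmp6 induce, stood at 7.01, 4.17, 3.31 and 4.02 in wild-type and at 3.91, 1.99, 2.83 and 2.36 in knockout. Wild-type 1 was far above the other 7 arrays. The difference was -1.86 (SE 0.77, limma adjusted p = 0.357). Bmp6 was also highest in wild-type 1, and without that array the difference was -1.06 for Hamp and 0.17 for Bmp6. Whether the 2 genes are linked here was not tested. Bmp10, a ligand of the endothelial receptor ALK1, went the other way, at -5.86, -4.73, -5.73 and -5.12 in wild-type and -3.88, -4.06, -3.42 and -3.72 in knockout. The Bmp10 probe was well above background on 2 of 4 wild-type arrays and on 4 of 4 knockout arrays, so it passed the filter through the knockout group. The size of its difference is not a measured fold: it was 1.59 with the processed signal, 0.42 with normexp background correction and 0.73 in the deposited value table.

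The 10 measured Wnt targets of hepatocytes had a median of -0.09, with 2 lower at an unadjusted p under 0.05 (6.48% of all genes). Lect2, a secreted hepatocyte protein, differed by -0.38 (SE 0.14, limma adjusted p = 0.292), and Nkd1, a feedback inhibitor of Wnt signalling, by -0.32 (SE 0.12, limma adjusted p = 0.322). Without wild-type 1 these differences were -0.25 and -0.22.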

How the data were processed

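Cy3-labelled RNA from 8 livers was hybridised to 8 arrays of 62976 spots. Spot intensity, on a linear scale, came from scanner files that the authors deposited. These were made with Agilent Feature Extraction 10.10, which the submitters' processing notes name. The authors also deposited a value table of log2 values, which tracked each array's log2 median signal (r of 0.99995 or more, medians 8.84 to 8.86), and how it was scaled is not given in the sources used here. It served as an alternative.

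Control and outlier-flagged spots were left out, spots of a probe were averaged, and log2 processed signals were centred on each array's 75th percentile over non-control spots. Probes well above background on at least 4 arrays were kept, and a gene took its kept probe with the highest mean. Symbols were updated through accessions for 27199 of 55681 probes and synonyms for 564. Genotypes were compared over all genes with limma 3.58.1 (R 4.3.3), with no covariate and two-sided p-values adjusted by Benjamini-Hochberg and called under 0.05, and the code was tested on simulated data. Genes given on every array were the 8 members with the smallest p, the member with the largest wild-type 1 departure in each of 6 lists, and 11 defining endothelial genes. The 2 genes with the smallest p were named per pathway list. The members and lists were chosen with earlier results of these data known. Alternatives covered normalization, background, filter, probe rule, variance model, sex covariates, a replicate block and left-out arrays. The number of arrays limits the precision.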

Additional observations from a re-analysis of the deposited data

Results flagged for a closer look

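In 118 groups of 4 arrays (each measured member, each named pathway gene and the list means), 11 held an array whose gap to the next was large for the group's range, and 9 of the 11 were wild-type 1. Chance alone flags about 1 group in 20, and genes on the same array are not independent. Wild-type 1 stood at 4.90 for Stab2 (4.46 to 4.53 in the other wild-type arrays), 4.22 for Clec4g (3.07 to 3.21), 3.30 for Robo4 (2.68 to 2.71), 3.88 for Ramp2 (3.56 to 3.60), 2.77 for Plvap (2.57 to 2.58) and 0.80 for Adam23 (0.01 to 0.14). It stood at 2.70 for the mean of the sinusoidal genes (2.20 to 2.27), 1.45 for the mean of all members (1.20 to 1.23) and 1.28 for sinusoidal minus general genes (0.93 to 0.95). In knockout, array 1 stood at 2.65 for Clec4g against 3.18 to 3.29, and array 2 at -0.79 for Nkd1 against -0.90 to -0.89.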

How the results depend on the processing

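No member was called under any alternative: the smallest adjusted p of a member was 0.108 (Dll4, deposited value table), and 732 of 755 member values kept their sign, while 23 in 10 members did not. Kdr was 0.075 with normexp and quantile normalization, 0.10 with normexp and the 75th percentile and 0.076 in the value table. In these settings the highest-mean probe was chosen anew, so the Kdr probe may not be the same. The second Kdr probe gave 0.10 with the main processing. Nrp2, a pathway gene, was 0.19 in the value table and 0.0075 with the mean of its probes. Stab2 was 0.004985 with the mean of its probes and 0.012 with Ddx3y as a covariate, Lyve1 was 0.025 and Tek -0.13 with Xist as a covariate, and on 6 arrays Tek was -0.035 and Fli1 -0.034. Leaving out each array in turn gave -0.054 to 0.093 for Stab2, -0.14 to 0.038 for Lyve1, -0.19 to 0.015 for Oit3, -0.16 to 0.0076 for Fcgr2b, -0.33 to 0.017 for Rspo3, -0.37 to 0.17 for Bmp6, -0.10 to 0.14 for Tek and -0.028 to 0.45 for Sox7, and -0.20 to -0.060 for the median of all members, the last without wild-type 1. The cause was not tested. One pathway gene, Bmp10, was called with a trended robust variance (1 call, adjusted p = 0.0315) and with Ddx3y as a covariate (1 call, adjusted p = 0.0414). It was well above background on 2 of 4 wild-type arrays, passed the filter through the knockout group, and was not tested where all 8 arrays had to be above background, so these calls are no measured change. Members lower at an unadjusted p under 0.05 numbered 2 to 13.

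Over all genes, 42 were called lower and 9 higher. The counts were 66 and 14 with quantile normalization, 127 and 24 with normexp and quantile, 122 and 13 with normexp and the 75th percentile, 50 and 7 with the percentile over probes above background, 122 and 19 in the value table, 19 and 0 without a filter, 54 and 8 for probes above background on 8 arrays, 44 and 7 with the mean of probes, 119 and 30 with the trended robust variance, 6 and 0 on 6 arrays, 15 and 3 with Xist, 78 and 13 with Ddx3y, and 143 and 57 at an adjusted p under 0.1. Leaving out 1 array gave 14 to 66 lower and 0 to 24 higher. Replicate numbers did not pair the arrays (correlations of -0.114, -0.0282, -0.0124 and 0.0689). The replicate block gave 17 and 2 calls, 0 of them members, with a smallest member adjusted p of 0.340 and an unchanged median of -0.16. It changed no call on a member. The 4 arrays a group limit the precision, and Wnt2 was too dim to compare.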

Other observations

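Adgrf5, an adhesion receptor of endothelium in the list of other general genes, was singled out after its values were seen. It stood at 8.91 in knockout 1 and between -0.59 and 0.07 on the other 7 arrays, from 1 probe with 1 spot. It raised the mean of that list in knockout 1 to 0.93, against 0.54 to 0.67 on the other arrays.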
